A study of Mus musculus with 12 samples.

Results

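The clustered protocadherins are cell-surface adhesion proteins encoded by 3 neighbouring gene clusters, alpha, beta and gamma. The members were the rows of the deposited expression table whose gene symbol begins with Pcdha, Pcdhb or Pcdhg and ends in an isoform number. The rule found 59 rows, holding 58 genes, of 29454 rows in the table: 14 in the alpha cluster, 22 in the beta cluster and 23 in the gamma cluster. Of the 59, 5 are C-type isoforms, namely Pcdhac1, Pcdhac2, Pcdhgc3, Pcdhgc4 and Pcdhgc5.

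In the alpha and gamma clusters each isoform has its own promoter and its own large first exon, which is spliced to constant exons shared by the whole cluster. The beta genes have no shared constant exons. In most neurons the ordinary promoters are chosen at random, with CTCF and cohesin bringing an enhancer to the chosen promoter, whereas C-type promoters are used more uniformly. The proteins pair on one membrane and bind like partners on another, which lets a neurite recognise and avoid branches of its own cell. Among the C-type isoforms, Pcdhac2 is known for the tiling of serotonergic axons, Pcdhgc4 for neuron survival, Pcdhgc3 for dendrite branching through Axin1, and Pcdhgc5 for a late postnatal onset.

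The 12 libraries hold hippocampal RNA of littermate mouse pups in 3 groups, all labelled postnatal day 4 and strain C57/BL6. The series text gives postnatal day 0 instead. WT (n = 3) carried no transgene. CAMK (n = 3) carried CaMKIIα-tTA, a tetracycline transactivator driven by the promoter of a kinase of forebrain excitatory neurons. CX3CL1-ct (n = 6) carried that driver together with Tg-CX3CL1-ct, a transgene named for the chemokine CX3CL1, from a line backcrossed to C57BL/6J for 6 generations. The CX3CL1-ct group therefore differs from CAMK by the transgene and from WT by both alleles, and animals with the transgene alone were not analysed here. The labels give neither the sex nor the number of pups per library, so p-values measure the spread between these libraries.

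Levels are in FPKM, fragment counts scaled to transcript length and to the mapped fragments of the library, so that genes can be compared per length. The steps between low values of single-exon genes gave an estimated depth of 11000000 to 16200000 fragments per library. Some libraries stood apart. The summed FPKM of 10 striatal markers was 302, 223 and 213 in WT 2, WT 3 and CX3CL1-ct 5, and 63.3 to 84.9 in the other 9 libraries. In CX3CL1-ct 5 the sum of 8 markers of hippocampal CA pyramidal neurons was 104, against 194 to 318 in the other 11. CX3CL1-ct 1, 2 and 3 differed from one another by little more than counting noise, with a median dispersion ratio of 1.16 to 1.57 (1 being counting noise alone) against 1.83 to 5.55 in the 18 other pairs within a group. Each comparison was therefore repeated without WT 2, WT 3 and CX3CL1-ct 5, and again with CX3CL1-ct 1 to 3 averaged.

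All 59 rows were reported under 1 interval, chromosome 18 from 36930184 to 37841873 (mm10), together with 24 other rows, the unit within which Cufflinks divides fragments among overlapping models. In the GENCODE M21 gene models, alpha genes shared 38.0 to 54.9% of their exon bases with other members and gamma genes 27.8 to 66.8%. Beta genes shared 0 to 9.7%, so their fragments could be assigned with less ambiguity. By gene identifier, 2 rows carried another symbol than the one listed: a row listed as Pcdhga8 is Pcdhgc4, and a row listed as Pcdha11 starts where RefSeq (GRCm38.p6) places Pcdha10. Both are called here by identifier.

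The most abundant members were 3 of the C-type isoforms, followed by ordinary gamma genes. Over the 12 libraries the mean was 32.6 FPKM for Pcdhgc3, 22.7 for Pcdhgc4, 14.5 for Pcdhac2 and 13.6 for Pcdhga11, and these 4 were among the 5 highest members in every library. The other C-type isoforms were not abundant, at 4.43 FPKM for Pcdhgc5 and 3.02 for Pcdhac1. Median levels of the ordinary isoforms were 4.52 FPKM for alpha, 3.49 for beta, 7.34 for gamma A and 5.65 for gamma B. Pcdha1, Pcdhb1 and Pcdhb2 were among the 5 lowest members in every library, and Pcdhb1 was the lowest on average at 0.164 FPKM.

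**Figure D1:**
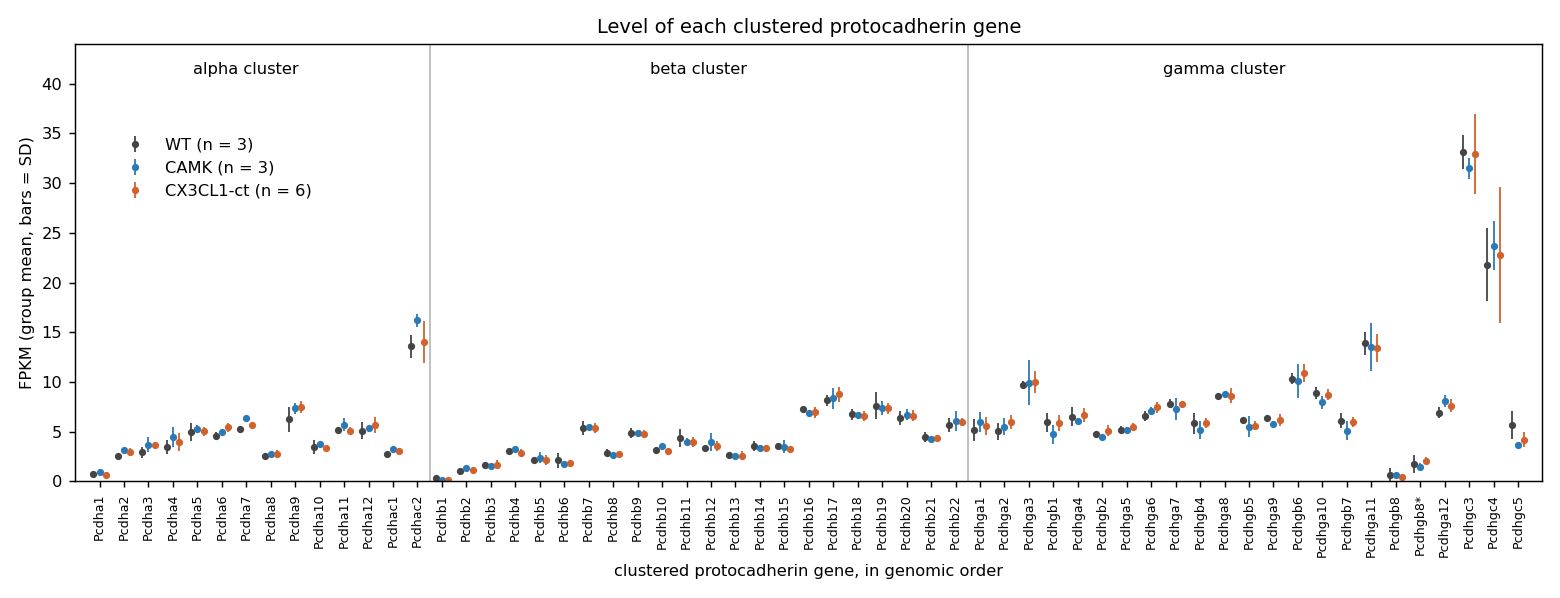
Level of each clustered protocadherin gene in genomic order, as the group mean in FPKM with bars for the SD, for WT (n = 3), CAMK (n = 3) and CX3CL1-ct (n = 6). Pcdhgc3 and Pcdhgc4 stand above the other members in all 3 groups, and Pcdhac2 and Pcdhga11 come next. Pcdhgb8* is the row whose identifier is not in GENCODE M21, placed beside the other Pcdhgb8 row for want of a position.

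The order of levels was much alike from library to library. Spearman's rho between pairs of libraries ran from 0.894 to 0.98 over the 59 members, which share each library's depth and gene models. Levels also tended to follow position within the beta cluster. Pcdhb1 to Pcdhb6, at the start, had means of 0.164 to 3.0 FPKM, and Pcdhb16 to Pcdhb20 had means of 6.56 to 8.49 FPKM. At the end, Pcdhb21 and Pcdhb22 were lower again, at 4.34 and 5.91 FPKM. As a description across genes, Spearman's rho between genomic order and mean FPKM was 0.802 over 22 beta genes, 0.622 over 12 alpha genes and 0.312 over 19 gamma genes, C-type isoforms left out.

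The highest ordinary members of each cluster showed how far single libraries spread. Pcdhga11 was at 14.1, 12.7 and 15.01 FPKM in WT 1 to 3, at 16.3, 11.6 and 12.7 in CAMK 1 to 3, and at 10.7 to 14.7 (median 13.8) in CX3CL1-ct. Pcdhgb6 was at 9.67, 10.7 and 10.5 FPKM in WT, at 12.1, 9.20 and 9.004 in CAMK, and at 9.90 to 12.1 (median 10.6) in CX3CL1-ct. Pcdhga3 was at 10.1, 9.42 and 9.58 FPKM in WT, at 12.0, 7.47 and 10.3 in CAMK, and at 7.88 to 11.2 (median 10.3) in CX3CL1-ct. All 3 gamma genes were highest in CAMK 1 among the CAMK libraries, and their groups overlapped.

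In the beta cluster Pcdhb17 was at 7.87, 7.82 and 8.76 FPKM in WT, at 9.48, 7.31 and 8.28 in CAMK, and at 8.07 to 9.84 (median 8.48) in CX3CL1-ct. Pcdhb19 was at 6.05, 8.20 and 8.56 FPKM in WT, at 6.62, 7.88 and 7.71 in CAMK, and at 6.39 to 8.08 (median 7.42) in CX3CL1-ct. Pcdhb16 was at 7.14, 7.42 and 7.37 FPKM in WT, at 6.85, 6.72 and 6.92 in CAMK, and at 6.32 to 7.72 (median 6.77) in CX3CL1-ct. Pcdhb16 was lower in all 3 CAMK libraries than in any WT library, and the other 2 genes overlapped between groups. Excluding Pcdhb1, the 21 beta genes had a median within-group coefficient of variation of 10.5%, against 7.33% from counting alone at a median of 186 estimated fragments. Pcdhb1 rested on an estimated 2 to 17 fragments per library, too few to compare groups.

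No clustered protocadherin gene passed the test in any comparison. The test was limma on log2(FPKM + 1), with Benjamini-Hochberg adjustment over the 16503 genes that reached 1 FPKM in at least 3 libraries, at a threshold of 0.05. Of the 59 members 56 entered it, and Pcdha1, Pcdhb1 and one row of Pcdhgb8 did not. In CAMK against WT 0 of 56 were called, where 0.358% of all tested genes were, and 3 had an unadjusted p under 0.05 (12.4% of all genes). In CX3CL1-ct against WT 0 of 56 were called (0.454% of all genes), and 4 had an unadjusted p under 0.05 (12.3% of all genes). In CX3CL1-ct against CAMK 0 of 56 were called (0.0606% of all genes), and 1 had an unadjusted p under 0.05 (6.37% of all genes).

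The intervals say how large a difference could have been missed. On the log2(FPKM + 1) scale, which understates changes of low genes, the 95% interval lay within 1.5-fold for 51 of 56 members in CAMK against WT (75.1% of all genes). It did so for 55 of 56 in CX3CL1-ct against WT (82.1% of all genes) and for 55 of 56 in CX3CL1-ct against CAMK (85.1% of all genes). The same count of 0 calls was found without WT 2, WT 3 and CX3CL1-ct 5 and with CX3CL1-ct 1 to 3 averaged.

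**Figure D2:**
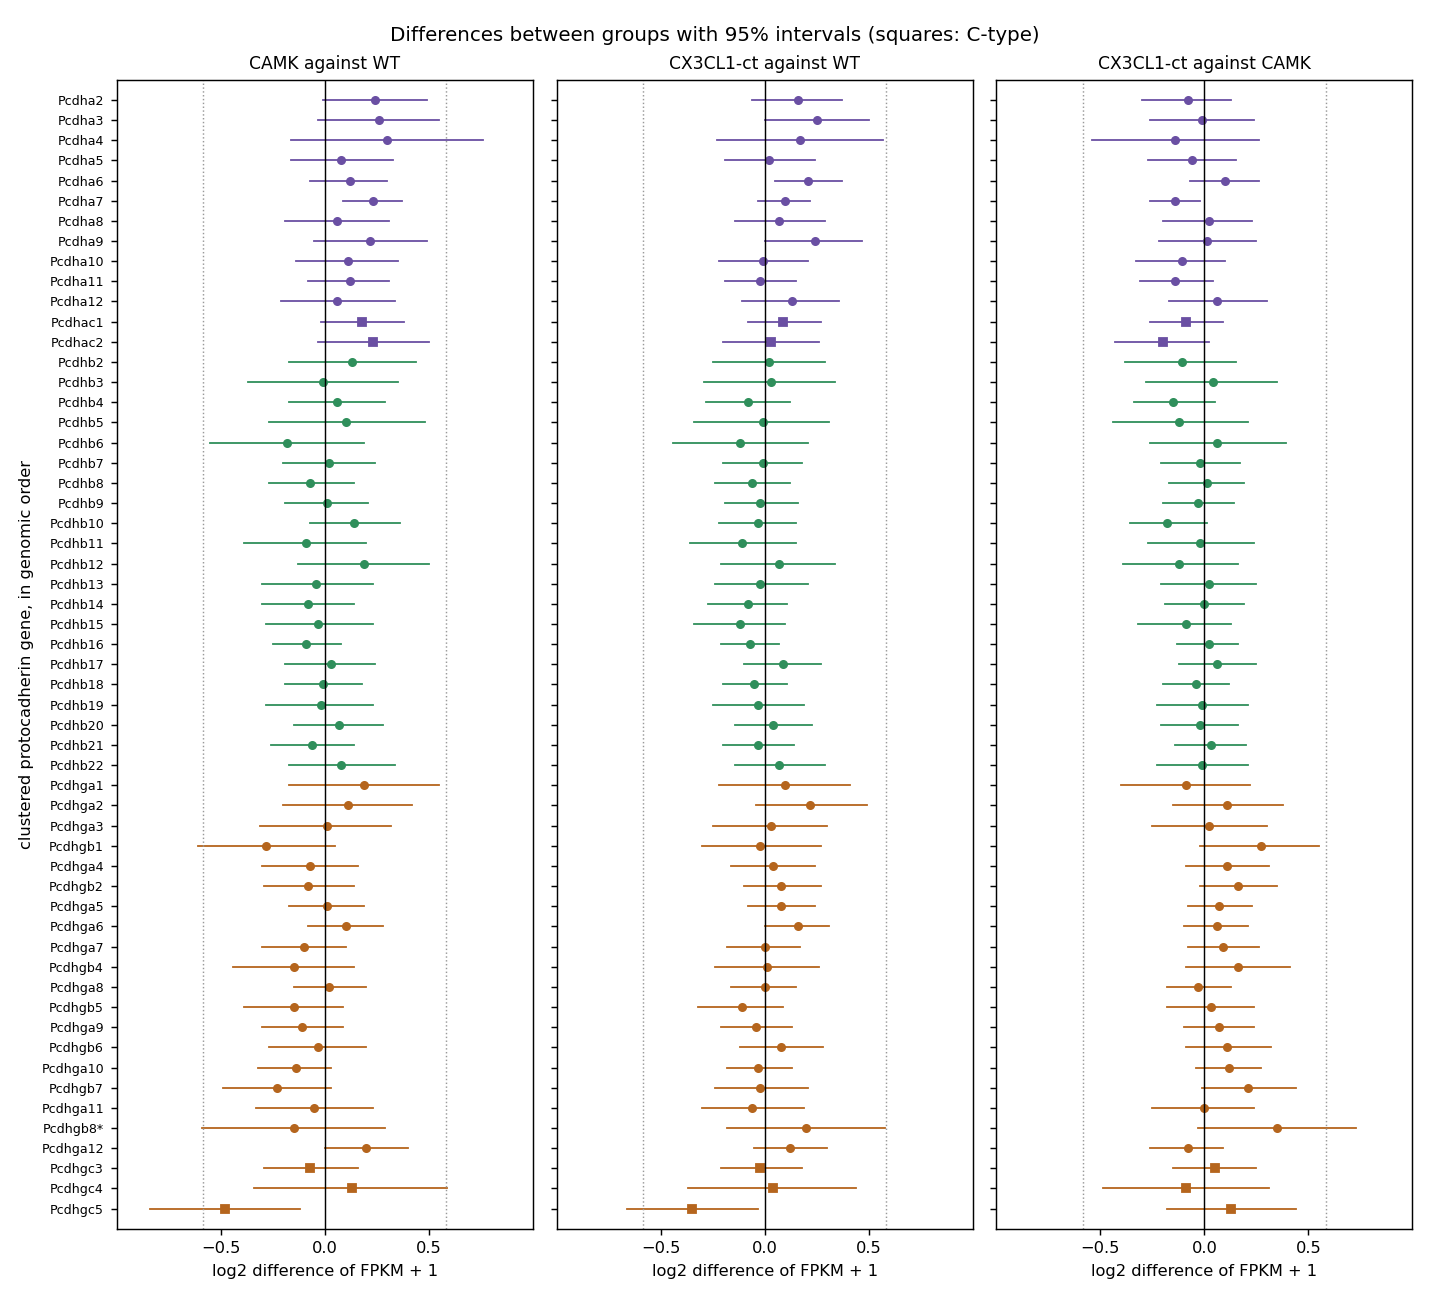
Difference between groups of each of the 56 tested members, as the log2 difference of FPKM + 1 with its 95% interval, in genomic order, with alpha in purple, beta in green, gamma in brown and C-type isoforms as squares. Dotted lines mark 1.5-fold, and the alpha points lie to the right of 0 in CAMK against WT. Pcdhgb8*, the row without a known position, is placed where the other Pcdhgb8 row lies.

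The alpha cluster read higher in CAMK than in WT as a whole, although no single gene was called. Its summed level was 62.0, 65.0 and 62.6 FPKM in WT 1 to 3, 73.6, 70.9 and 74.7 in CAMK 1 to 3, and 65.03 to 77.3 (median 67.3) in CX3CL1-ct. Every CAMK library was above every WT library, and the ratio of means was 1.16. All 13 tested alpha cluster genes had a log2 difference above 0 in CAMK against WT, where 50.5% of all genes did, with a median of 0.18 against 0.00 for all genes. The genes share constant exons and libraries, so the 13 are not independent. In bulk tissue fewer cells of a type and less RNA per cell cannot be told apart.

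In CX3CL1-ct against WT 11 of 13 alpha genes had a difference above 0 (62.7% of all genes), and in CX3CL1-ct against CAMK 4 of 13 did (63.2% of all genes). These comparisons share their WT or CAMK libraries with the first. All 6 CX3CL1-ct sums were above the highest WT sum of 64.98, the lowest by less than 0.1 FPKM, and after median-of-ratios scaling 3 of the 6 no longer were. The CAMK sums stayed above WT after that scaling, at 73.3 to 74.9 against 62.2 to 66.9. They also did so without Pcdha4, at 65.9 to 70.3 against 59.0 to 61.0, and without Pcdhac2, at 55.5 to 58.0 against 47.0 to 51.9. Without WT 2, WT 3 and CX3CL1-ct 5, 11 of 13 differences were above 0 in CAMK against WT (52.4% of all genes). That fit kept only WT 1 of its group, the library with the lowest alpha sum of the 12, so it is a weak check.

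Marker sums of several cell types also lay apart in CAMK and WT, without a test. The sum of 10 neuronal markers was 1674 to 2109 FPKM in WT, 2083 to 2455 in CAMK and 1893 to 2404 in CX3CL1-ct, and none of the 10 was at 0. WT 1 had the highest neuronal sum of the WT group, 2109, and the lowest alpha sum. CX3CL1-ct 6 went the other way, with the highest neuronal sum, 2404, and the highest alpha sum, 77.3, of its group. Of 18 marker lists, the sums of 5 did not overlap between CAMK and WT, where 18.0% of single tested genes did not. Higher in CAMK were 8 markers of meningeal fibroblasts, at 56.8 to 63.7 FPKM against 34.2 to 50.6 in WT. Lower in CAMK were 7 markers of proliferating cells, at 28.6 to 32.3 FPKM against 42.9 to 50.7, and 6 markers of dentate granule neurons, at 30.6 to 32.9 against 40.6 to 47.7. Also lower were 8 markers of GABAergic interneurons, at 273 to 287 FPKM against 303 to 368, and 6 markers of Cajal-Retzius cells, at 57.3 to 65.5 against 66.0 to 70.7. No gene of these 5 lists was at 0 in any library, but single markers could overlap or go the other way. Of the interneuron list only Sst did not overlap, at 124 to 147 FPKM in CAMK and 150 to 183 in WT. The Cajal-Retzius sums were close, at 65.5 in CAMK 1 and 66.0 in WT 2. Reln, most of that sum, overlapped, and Lhx1 was higher in CAMK 2 and CAMK 3 than in any WT library. Trp73 and Ndnf were lower in CAMK without overlap. The part of these cell types and of neuron content in the alpha difference was not tested.

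**Figure D3:**
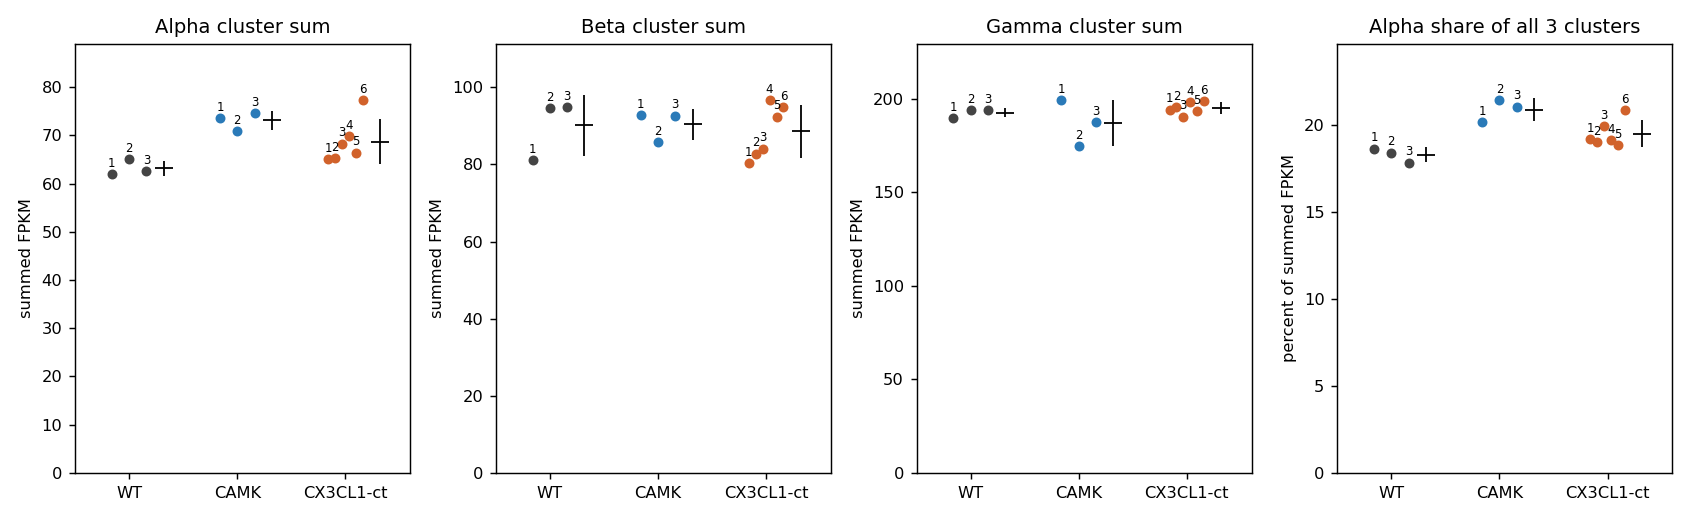
Summed FPKM of the alpha, beta and gamma clusters and the alpha share of all 3, with 1 point per library (numbered by replicate) and a cross for the mean and SD of each group. The 3 CAMK points lie above the 3 WT points for the alpha cluster, while the groups overlap for the beta and gamma clusters.

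Within the alpha cluster Pcdha7 had the smallest p in CAMK against WT. It was at 5.58, 5.16 and 4.94 FPKM in WT, at 6.20, 6.24 and 6.51 in CAMK, and at 5.43 to 5.83 (median 5.67) in CX3CL1-ct. CAMK was thus above both other groups with no overlap. The log2 difference was 0.23 (SE 0.06, adjusted p = 0.154) in CAMK against WT and -0.14 (SE 0.06, adjusted p = 0.741) in CX3CL1-ct against CAMK.

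Pcdha6 had the smallest p in CX3CL1-ct against WT. It was at 4.29, 5.02 and 4.30 FPKM in WT, at 5.05, 4.87 and 5.07 in CAMK, and at 4.90 to 6.03 (median 5.25) in CX3CL1-ct, and the log2 difference from WT to CX3CL1-ct was 0.21 (SE 0.07, adjusted p = 0.272). Of the 6 CX3CL1-ct libraries 5 were above all WT libraries. Pcdha9, the highest ordinary alpha gene, was at 4.75, 6.79 and 7.13 FPKM in WT, at 7.08, 6.99 and 7.93 in CAMK, and at 6.78 to 8.32 (median 7.28) in CX3CL1-ct. Only WT 1 stood low for Pcdha9. Pcdha12 was at 6.01, 4.92 and 4.35 FPKM in WT, at 5.63, 4.93 and 5.44 in CAMK, and at 4.95 to 7.24 (median 5.46) in CX3CL1-ct, with overlapping groups.

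Groups did not overlap for 9 of 56 members in CAMK against WT, where the share over all genes was 18.0%. Higher in CAMK were 6, Pcdha2, Pcdha7, Pcdhac1, Pcdhac2, Pcdhb10 and Pcdhga12 (9.22% of all genes), and lower in CAMK were 3, Pcdhb16, Pcdhga9 and Pcdhgc5 (8.8% of all genes). In CX3CL1-ct against WT 1 of 56 did not overlap (6.04% of all genes in either direction, 4.67% higher and 1.38% lower), namely Pcdha3, which was higher. In CX3CL1-ct against CAMK it was 1 of 56 (3.3% of all genes in either direction, 2.78% higher and 0.527% lower), namely Pcdha7, which was lower. Over both directions no comparison gave the members a larger share than all genes, and in CAMK against WT the shares were close.

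The beta cluster showed no shift between groups larger than its spread. Its sum was 81.1, 94.6 and 94.9 FPKM in WT, 92.8, 85.7 and 92.7 in CAMK, and 80.4 to 96.7 (median 88.2) in CX3CL1-ct. In CX3CL1-ct it was 80.4, 82.8 and 84.1 FPKM in libraries 1 to 3 and 96.7, 92.4 and 94.9 in libraries 4 to 6, with none near the median. Libraries of 1 group differed more than the group means did. Among 21 tested beta genes 11 had a log2 difference below 0 in CAMK against WT (49.5% of all genes), 15 in CX3CL1-ct against WT (37.3%) and 13 in CX3CL1-ct against CAMK (36.8%), with medians of -0.01, -0.03 and -0.02. These counts moved with the libraries used. In CAMK against WT the number below 0 was 4 of 21 without WT 2, WT 3 and CX3CL1-ct 5, and 7 without WT 2 or without WT 3 alone. In CX3CL1-ct against WT it was 6 without those 3 libraries, 9 with CX3CL1-ct 1 to 3 averaged and 19 with the replicate block. In CX3CL1-ct against CAMK it was 18 after median-of-ratios scaling (51.0% of all genes), 19 with the replicate block and 9 with CX3CL1-ct 1 to 3 averaged. Over single libraries left out in turn, the 3 numbers ran from 7 to 15, from 10 to 17 and from 10 to 18. Replicates 4 to 6 exist only in CX3CL1-ct, so with the replicate block both CX3CL1-ct comparisons rested on CX3CL1-ct 1 to 3. Pcdhb10 was at 3.05, 3.16 and 3.08 FPKM in WT, at 3.64, 3.25 and 3.71 in CAMK, and at 2.65 to 3.48 (median 2.93) in CX3CL1-ct. Its log2 difference in CX3CL1-ct against CAMK was -0.18 (SE 0.09, adjusted p = 0.775).

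The gamma cluster held most of the clustered protocadherin signal, 52.7 to 57.2% of the summed FPKM. Its sum was 189.7, 193.8 and 193.9 FPKM in WT, 199.4, 174.6 and 187.5 in CAMK, and 190.5 to 198.7 (median 194.8) in CX3CL1-ct. The CAMK libraries spread widest and enclosed both other groups. Gamma B genes read lower in CAMK 2 and CAMK 3: their sum was 42.0, 42.5 and 40.0 FPKM in WT, 43.4, 32.5 and 35.4 in CAMK, and 39.0 to 45.0 (median 41.5) in CX3CL1-ct. All 7 tested gamma B genes had a log2 difference below 0 in CAMK against WT (49.5% of all genes), with a median of -0.15, but the gamma B sum of CAMK 1 was above that of every WT library. Without WT 2, WT 3 and CX3CL1-ct 5, which left WT 1 as the only WT library, 5 of the 7 were below 0 (47.6% of all genes). In CX3CL1-ct against CAMK, which uses the same CAMK libraries, all 7 were above 0, and 6 were after median-of-ratios scaling. CAMK 2 and CAMK 3 also had high sums of 8 thalamic markers, at 131 and 105 FPKM. That sum was 140 in CX3CL1-ct 5, which had the lowest gamma B sum of its group, and 56.1 to 91.6 in every other library. Prkcd, Plekhg1 and Calb2 of that list did not separate these libraries. The part of thalamic content in the gamma B values was not tested.

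Of the 7 tested gamma B genes 6 were highest in CAMK 1 among the CAMK libraries, and Pcdhgb2 was lowest there at 4.27 FPKM, against 4.29 and 4.73 in CAMK 2 and CAMK 3. Pcdhgb7 was at 5.66, 6.99 and 5.62 FPKM in WT, at 6.11, 4.20 and 4.92 in CAMK, and at 5.19 to 6.43 (median 6.23) in CX3CL1-ct, a log2 difference of 0.21 (SE 0.10, adjusted p = 0.775) between CX3CL1-ct and CAMK. Of the gamma A genes, Pcdhga12 was above every WT library in all 3 CAMK libraries and Pcdhga6 in 2 of them. Pcdhga12 was at 7.43, 6.88 and 6.35 FPKM in WT, at 8.67, 7.48 and 8.11 in CAMK, and at 6.44 to 8.23 (median 7.73) in CX3CL1-ct, a log2 difference of 0.20 (SE 0.09, adjusted p = 0.396) between CAMK and WT. Pcdhga6 was at 6.03, 6.89 and 6.80 FPKM in WT, at 7.10, 7.48 and 6.77 in CAMK, and at 6.74 to 8.14 (median 7.56) in CX3CL1-ct, and the log2 difference from WT to CX3CL1-ct was 0.16 (SE 0.07, adjusted p = 0.399).

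The C-type isoforms together made up a steady share of the clustered protocadherin FPKM. The share was 22.4, 22.5 and 21.8% in WT, 20.9, 23.5 and 22.8% in CAMK, and 20.6 to 24.3% (median 21.5%) in CX3CL1-ct. The highest share was that of CX3CL1-ct 5. The group means, 22.2% ± 0.363 (SD, n = 3), 22.4% ± 1.36 (SD, n = 3) and 21.8% ± 1.32 (SD, n = 6), differed by less than 1 SD of CAMK or CX3CL1-ct.

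The 2 alpha C-type isoforms were both higher in every CAMK library than in any WT library. Pcdhac2 was at 14.98, 13.1 and 12.9 FPKM in WT, at 16.5, 15.5 and 16.6 in CAMK, and at 12.2 to 17.2 (median 13.2) in CX3CL1-ct. Its log2 difference was 0.23 (SE 0.12, adjusted p = 0.474) in CAMK against WT and -0.20 (SE 0.10, adjusted p = 0.775) in CX3CL1-ct against CAMK. Pcdhac1 was at 2.55, 2.86 and 2.88 FPKM in WT, at 3.18, 3.26 and 3.35 in CAMK, and at 2.55 to 3.47 (median 3.04) in CX3CL1-ct, a log2 difference of 0.18 (SE 0.09, adjusted p = 0.462) between CAMK and WT. CX3CL1-ct overlapped both other groups for the 2 genes.

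Pcdhgc5 differed most from WT in size, and its level followed 3 libraries. It was at 4.02, 6.47 and 6.48 FPKM in WT, at 3.50, 3.79 and 3.80 in CAMK, and at 3.69 to 5.76 (median 3.93) in CX3CL1-ct. The high libraries were WT 2, WT 3 and CX3CL1-ct 5, and the other 9 lay between 3.50 and 4.07. These are the 3 libraries with high striatal marker sums. The log2 difference was -0.48 (SE 0.17, adjusted p = 0.264) in CAMK against WT and -0.35 (SE 0.14, adjusted p = 0.358) in CX3CL1-ct against WT. Without the 3 libraries it was -0.10 and -0.04, in a fit where the lone WT library is assumed to vary like the other groups. Leaving out the high WT libraries had to bring the CAMK difference nearer 0, so this fit tests no cause. The part of striatal content in the Pcdhgc5 values was not tested. Without WT 1 the log2 difference was -0.67 (adjusted p = 0.0773) in CAMK against WT, the smallest adjusted p of any member in any setting.

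Pcdhgc3 and Pcdhgc4, the 2 most abundant members, did not differ between groups beyond their spread. Pcdhgc3 was at 34.9, 31.6 and 32.7 FPKM in WT, at 32.4, 30.3 and 31.8 in CAMK, and at 27.8 to 38.4 (median 31.4) in CX3CL1-ct. Pcdhgc4 was at 18.1, 25.5 and 21.7 FPKM in WT, at 20.8, 25.1 and 25.2 in CAMK, and at 18.9 to 36.6 (median 20.1) in CX3CL1-ct. The highest Pcdhgc4 and the lowest Pcdhgc3 were both in CX3CL1-ct 5. Their sum ranged from 51.1 to 64.4 FPKM, with a coefficient of variation of 6.46% over the 12 libraries, against 22.1% for Pcdhgc4 and 8.94% for Pcdhgc3. In CAMK against WT the 95% interval of the log2 difference was -0.29 to 0.16 for Pcdhgc3 and -0.34 to 0.59 for Pcdhgc4.

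**Figure D4:**
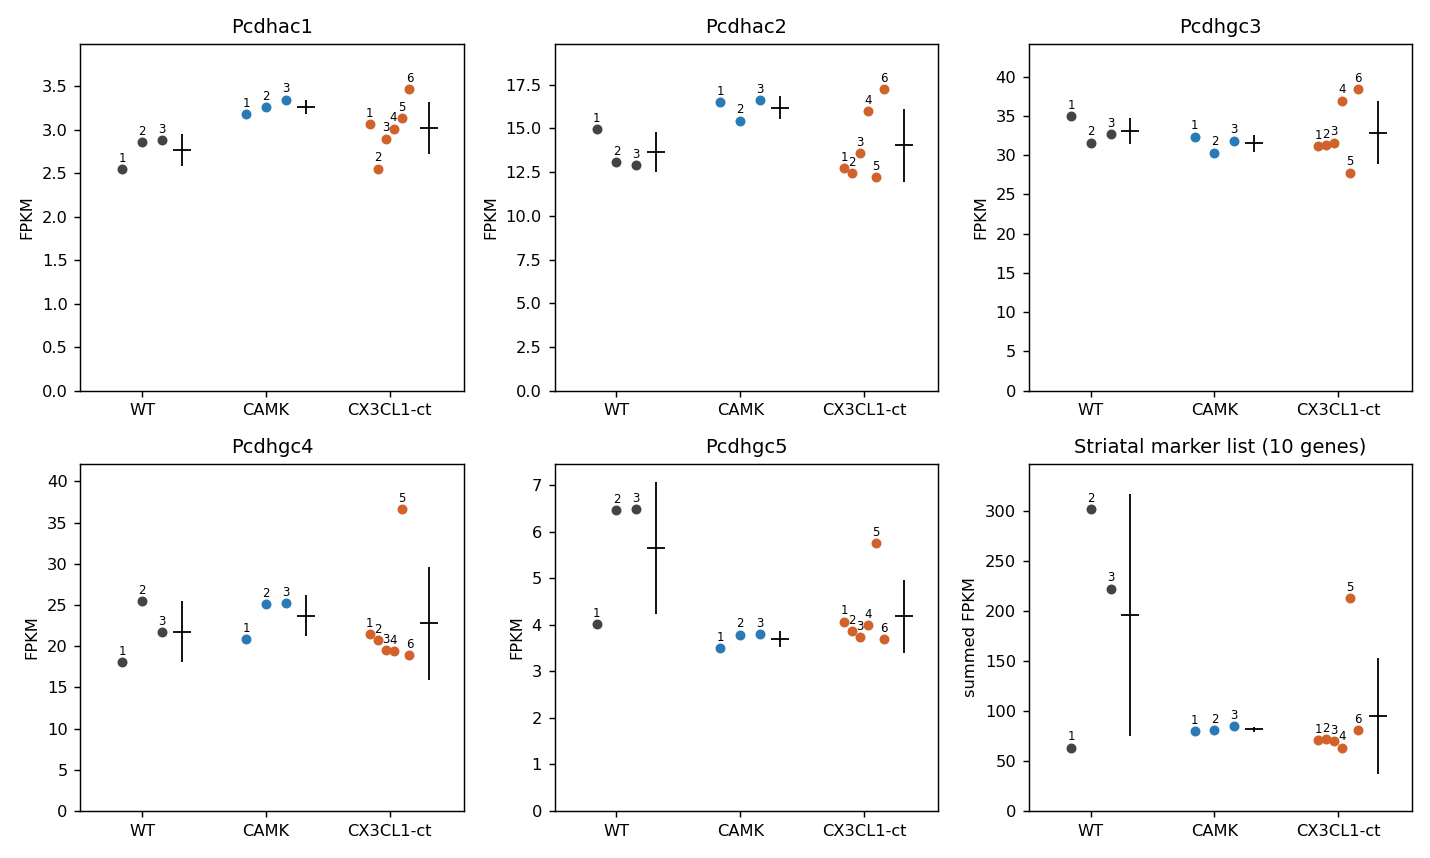
FPKM of the 5 C-type isoforms and the summed FPKM of 10 striatal markers, with 1 point per library (numbered by replicate) and a cross for the mean and SD of each group. WT 2, WT 3 and CX3CL1-ct 5 are the high points both for Pcdhgc5 and for the striatal markers, and CX3CL1-ct 5 is the high point for Pcdhgc4.

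For 2 pairs of rows, chosen after their values were seen, the single rows varied more than their sum. Gm42416 is a readthrough model in the same interval: 2410 of its 2856 exon bases lie in exons of Pcdha4 and the other 446 in exons of gamma genes. Pcdha4 ranged from 2.25 to 5.05 FPKM over the 12 libraries and Gm42416 from 0.837 to 3.56 FPKM. CAMK 2 and CAMK 3 had the highest Pcdha4 and the lowest Gm42416, CX3CL1-ct 1 and WT 1 the reverse, and the sum kept to 5.42 to 6.58 FPKM. The coefficient of variation over the 12 libraries was 22.4% for Pcdha4, 46.1% for Gm42416 and 4.67% for the sum.

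Pcdhgb8 was listed in 2 rows, whose exon overlap was not measured. The row with an identifier in GENCODE M21 was listed at 0 in WT 2 and CX3CL1-ct 6 and reached 1.27 FPKM in WT 1. The other row, not in that annotation, ranged from 1.07 to 2.81 FPKM, and the sum from 1.77 to 3.13 FPKM. The coefficient of variation was 63.6% and 29.8% for the rows and 14.8% for the sum.

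**Figure D5:**
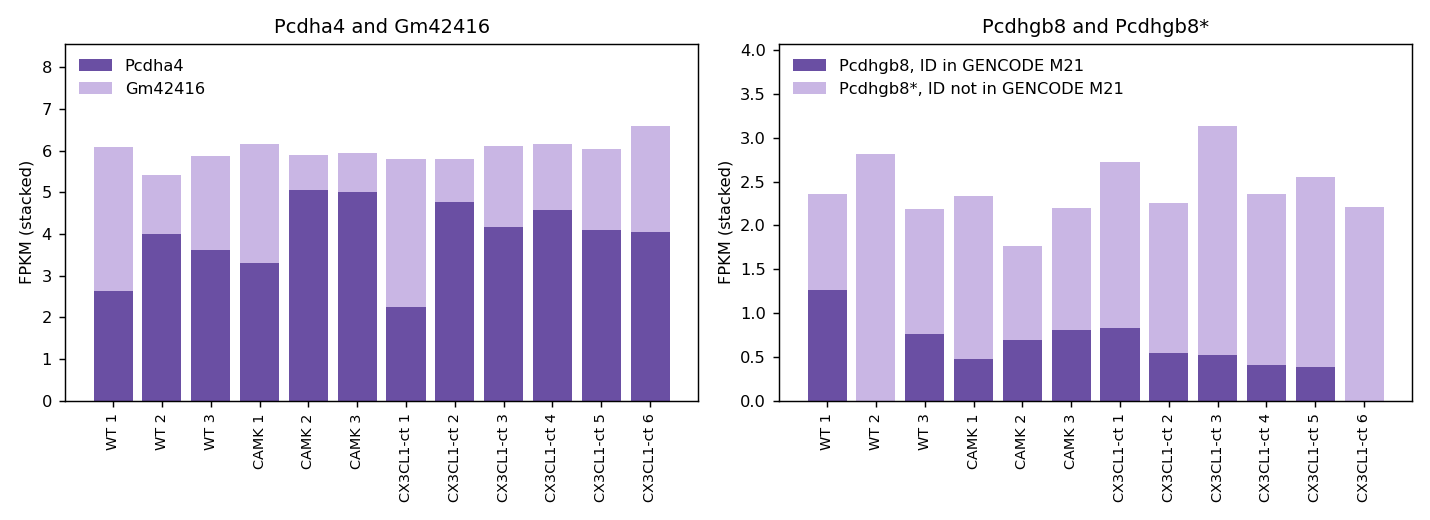
FPKM of Pcdha4 stacked with the readthrough model Gm42416 (left) and of the 2 rows named Pcdhgb8 stacked (right), with 1 bar per library. The total height for Pcdha4 and Gm42416 stays between 5.42 and 6.58 while the division between them changes.

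Other genes of protocadherin biology were not called either. In each of the 3 comparisons 0 genes passed among 12 nonclustered protocadherins, 25 genes of promoter choice and silencing, 14 signalling partners, 9 WAVE complex genes, 9 genes of shedding and gamma-secretase and 16 neighbours of the locus. In CAMK against WT the numbers with an unadjusted p under 0.05 were 3, 3, 4, 1, 1 and 1 in that order, where 12.4% of all genes had one. In CX3CL1-ct against WT they were 2, 1, 3, 1, 4 and 1 (12.3% of all genes), and in CX3CL1-ct against CAMK 2, 3, 2, 0, 1 and 0 (6.37% of all genes). The neighbours include Pcdh1, also counted as nonclustered, and the readthrough model Gm42416, whose exon bases lie in exons of members. Pcdh20, a nonclustered protocadherin, was at 16.4 ± 2.55 FPKM (SD, n = 3) in WT, 10.2 ± 0.598 (n = 3) in CAMK and 12.6 ± 1.93 (n = 6) in CX3CL1-ct. Its log2 difference was -0.63 (SE 0.14, adjusted p = 0.0837) in CAMK against WT. Ret, a receptor tyrosine kinase that binds clustered protocadherins, was at 6.68 ± 0.306 FPKM (SD, n = 3) in WT, 2.97 ± 0.851 (n = 3) in CAMK and 3.43 ± 0.725 (n = 6) in CX3CL1-ct. Its groups did not overlap between CAMK and WT, and the log2 difference of -0.98 (SE 0.18, adjusted p = 0.052) just missed the threshold.

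The remaining lists held smaller differences. In CAMK against WT the smallest p belonged to Wiz, a zinc finger partner of a histone methyltransferase (log2 difference 0.33, adjusted p = 0.233), to Cyfip2 of the WAVE complex (0.20, adjusted p = 0.314), to Psen2, a catalytic subunit of gamma-secretase (0.23, adjusted p = 0.403), and to the neighbour Fchsd1 (0.28, adjusted p = 0.17). In CX3CL1-ct against CAMK it belonged to Pcdh20 (0.28), the repressor Rest (0.24), the kinase Prkca (0.16), Wasf3 (-0.08), the gamma-secretase subunit Aph1c (0.60) and Arap3 (0.18), with adjusted p from 0.725 to 0.883. Ctcf, which is needed for promoter choice, was at 17.9 ± 1.2 FPKM (SD, n = 3) in WT, 17.3 ± 0.724 (n = 3) in CAMK and 18.5 ± 1.02 (n = 6) in CX3CL1-ct.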

How the data were processed

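Values were the FPKM deposited by the authors for 12 libraries. Per the labels' protocols, total RNA was depleted of ribosomal RNA and sequenced as stranded paired reads of 100 nt. The submitters' processing notes name TopHat, Bowtie, Cufflinks, Cuffdiff and mm10; versions and the annotation are not given in the sources used here. FPKM were tested as log2(FPKM + 1) with limma 3.58.1 (trend, R 4.3.3) in 1 model of 3 group means over all 12 libraries, two-sided, with Benjamini-Hochberg adjustment over 16503 genes with at least 1 FPKM in at least 3 libraries. Sums over members were described without a test. Depth was estimated from the smallest FPKM steps of single-exon genes. Exon overlap came from GENCODE M21.

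The members and gene lists were chosen with earlier results of these data known. Genes given in every library were the C-type isoforms, the 3 highest other members of each cluster, and the 3 smallest p of each comparison; a few others were named after their values were seen. Alternatives were a pseudocount of 0.1, no filter, median-of-ratios scaling, 2 groups only, robust variance, a replicate block and leaving out each library. Leaving out WT 2, WT 3 and CX3CL1-ct 5 and averaging CX3CL1-ct 1 to 3 were added after seeing the data. Same-numbered CAMK and WT libraries deviated together (correlations 0.236, 0.163 and 0.1003), which only just meets the rule for pairing (every correlation over 0.1), while CX3CL1-ct did not pair with either group. On simulated data of 16503 genes the test recovered 86 of 100 2-fold changes in CAMK against WT, 91 in CX3CL1-ct against WT and 89 in CX3CL1-ct against CAMK. In that order 18 of 199, 14 of 203 and 8 of 196 calls were false. The simulated noise was independent between genes and held no difference shared by many genes, such as that of the striatal markers. Recovery in the real libraries may therefore be lower.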

Additional observations from a re-analysis of the deposited data

Results flagged for a closer look

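In the CX3CL1-ct group 5 of 64 sets of 6 values had a lowest or highest library set apart from the rest by Dixon's criterion, where chance gives about 1 in 20. Of the 5, 3 were in CX3CL1-ct 5. Pcdhgc4 was 36.6 FPKM in CX3CL1-ct 5 and 18.9 to 21.4 in the other libraries of the group. Pcdhgc5 was 5.76 FPKM in CX3CL1-ct 5 and 3.69 to 4.07 in the others. Pcdha2 was 3.79 FPKM in CX3CL1-ct 5 and 2.58 to 3.03 in the others. In this library the striatal marker sum was 213 FPKM and the CA pyramidal marker sum 104 FPKM, and their part in the 3 values was not tested. Pcdha4 was 2.25 FPKM in CX3CL1-ct 1 and 4.06 to 4.77 in the others, while its sum with the overlapping model Gm42416 was 5.81 FPKM in CX3CL1-ct 1 and 5.80 in CX3CL1-ct 2. Pcdha12 was 7.24 FPKM in CX3CL1-ct 6 and 4.95 to 5.47 in the others.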

How the results depend on the processing

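The count of 0 called members held under every alternative run in each comparison, with a smallest adjusted p of 0.0773. With the replicate block it also stayed at 0, with smallest adjusted p of 0.121 (CAMK against WT), 0.156 (CX3CL1-ct against WT) and 0.0923 (CX3CL1-ct against CAMK). In the same order, the block raised the calls over all genes from 59 to 490, from 75 to 540 and from 10 to 171. Replicates 4 to 6 exist only in CX3CL1-ct. The block's comparisons with that group therefore rest on CX3CL1-ct 1 to 3, which differed by little more than counting noise. Of 453 alternatives 437 kept direction and side of the threshold or stayed within 1 SD. Scaling by median of ratios moved the mean gamma sum from 192.5 to 195.4 FPKM in WT and from 195.1 to 191.7 in CX3CL1-ct. The other 14 changed the sign of C-type differences near 0. Those with the replicate block used CX3CL1-ct 1 to 3 only, and for the rest the cause was not tested. In CX3CL1-ct against WT, Pcdhac2 (0.03) became -0.02 with scaling, -0.07 with the replicate block, -0.06 without WT 2, WT 3 and CX3CL1-ct 5, and lay between -0.03 and 0.09 when single libraries were left out (below 0 without WT 3, CX3CL1-ct 4 or CX3CL1-ct 6). Pcdhgc4 (0.04) became -0.01 with scaling, -0.07 with the replicate block, and lay between -0.10 and 0.15 when single libraries were left out (below 0 without CX3CL1-ct 5, at -0.10, or WT 1, at -0.09). Pcdhgc3 (-0.02) became 0.01 with CX3CL1-ct 1 to 3 averaged and lay between -0.06 and 0.03 when single libraries were left out (above 0 without WT 1 or CX3CL1-ct 5). In CX3CL1-ct against CAMK, Pcdhgc3 (0.05) became -0.01 with the replicate block. Depth was known only as an estimate, and 3 libraries in WT and in CAMK limit what can be detected.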
